A study of Gallus gallus with 14 samples.

Results

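The transcripts described here are RefSeq transcripts of the chicken (Gallus gallus) that were higher in male gonads of embryonic day 14 (E14G) than of embryonic day 11 (E11G). They were chosen by their own FPKM values, a measure of transcript level scaled to transcript length and library size. The mean of both E14G libraries had to be at least 5 FPKM, and the lower E14G library had to be at least 2 times the higher E11G library. Of 6528 RefSeq transcripts in a table of 42501 transcripts, 21 met both limits, which is 0.322%. The transcript of GRP, one of the 21, and the genes HBA1, HBAD, STAR, CYP17A1 and HSD3B1 were left out by name. None of the 5 transcripts of these 5 genes had met the limits, so 20 members remained. Since the E14G and E11G values chose the members, the differences between these stages are given as a description and were not tested.

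Strand-specific RNA-seq was done on total RNA in 6 libraries from JA57 broilers, 2 each from blastodermal cells (BC), E11G and E14G. BC were the cells of blastoderms from fresh, non-incubated fertilized eggs. E11G and E14G were whole gonads labelled as male, pooled over embryos. No RNA-seq group was treated or carried an engineered allele. The labels do not say whether the 2 libraries of a stage came from separate pools, so their spread may be technical. In whole gonads, fewer cells of a type and less RNA per cell cannot be told apart. The study's 8 small RNA libraries were used here only for clusters of PIWI-interacting RNAs (piRNAs). Their RNA was oxidized with periodate before library construction. They came from BC of Leghorn eggs, gonads (E11G and E14G) of Cobb500 broilers and Leghorn, and cultured primordial germ cells from E7 gonads (E7PGC) of Arbor Acres broilers.

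The embryonic testis holds germ cells inside cords of Sertoli cells, and between the cords an interstitium of steroidogenic cells, fibroblasts, contractile cells, vessels and blood-borne cells. Secreted WNT proteins bind Frizzled receptors, R-spondins strengthen that signal, and secreted inhibitors such as WIF1 bind WNT proteins outside the cell. Avian β-defensins and cathelicidins are small cationic host defence peptides. Several of them, but not all, are known in chicken from bone marrow and from heterophils, the avian counterpart of neutrophils.

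The depth of the libraries is unknown, since the FPKM values did not fall on whole-read steps. Between 4797 and 5174 RefSeq transcripts reached 1 FPKM in each library. The 2 libraries of a stage correlated with r of 0.987 (BC), 0.973 (E11G) and 0.963 (E14G) over log2(FPKM + 1) of 22368 transcripts, and E14G1 was slightly closer to E11G2 (r = 0.968) than to E14G2. These correlations are across transcripts, which are not independent replicates. Of the Sertoli cell markers, AMH was between 2906 and 4696 FPKM in the 4 gonad libraries against 5.33 and 4.97 FPKM in BC. DMRT1, SOX9, WT1, GATA4 and CLU were also higher in each gonad library than in BC, while FSHR in E11G2 lay within the BC values, NR0B1 was lower in E14G than in BC and INHA was listed at 0 in all 6. The pluripotency factor NANOG was at 899 and 1001 FPKM in BC, 28.7 and 29.2 FPKM in E11G, and 3.24 and 4.33 FPKM in E14G. The first E11G library stood apart from its label in some ovary markers. Aromatase (CYP19A1), the ovarian enzyme of estrogen synthesis, was at 116 FPKM in E11G1 and at 0.0137 FPKM in E11G2, and at 0.0165 and 0.0188 FPKM in E14G. HSD17B1 was at 18.0 FPKM in E11G1 and 1.68 FPKM in E11G2, and FOXL2 at 2.45 and 0.188 FPKM. FST, at 7.21 and 7.97 FPKM, and WNT4, at 5.57 and 4.52 FPKM, did not stand apart in this way. RSPO1 stayed under 1 FPKM in all 6 libraries. E11G1 was also above the other gonad libraries in single markers of nerve, adrenal and mesonephros. STMN2 was at 9.45 FPKM in E11G1 and 0.201 FPKM in E11G2, TH at 2.68 and 0.111 FPKM, CALB1 at 5.97 and 0.910 FPKM, and UMOD at 3.11 and 0.331 FPKM. Whether all gonads pooled in E11G1 were male was not tested. As the limits use the higher E11G library, leaving out E11G1 cannot remove a member, so the choice of members is no check of it.

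The members ranged between 5.18 and 86.2 FPKM in mean E14G level, with a median of 14.9 FPKM, and between 0.501 and 38.1 FPKM in mean E11G level, with a median of 3.77 FPKM. The ratio of the E14G mean to the E11G mean ran between 2.25 for MEOX2 and 13.9 for COL20A1, and its median was 2.76. Over the 4282 RefSeq transcripts of at least 5 FPKM in E14G, the median ratio was 1.057. The 2 E14G libraries of a member differed by a median of 1.15 times and the 2 E11G libraries by 1.16 times. The widest pairs were TAGLN in E14G, at 1.87 times, and CCK in E11G, at 2.46 and 4.92 FPKM. E14G2 was the higher E14G library for 11 of the 20 members, and for 1836 of the 4282 RefSeq transcripts of at least 5 FPKM in E14G. When the gonad libraries were brought to equal medians over the transcripts, 14 of the 20 still met the limits, and DEFB4A, CATH1, FOLR1, PTH2R, COL12A1 and MEOX2 did not.

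**Figure D1:**
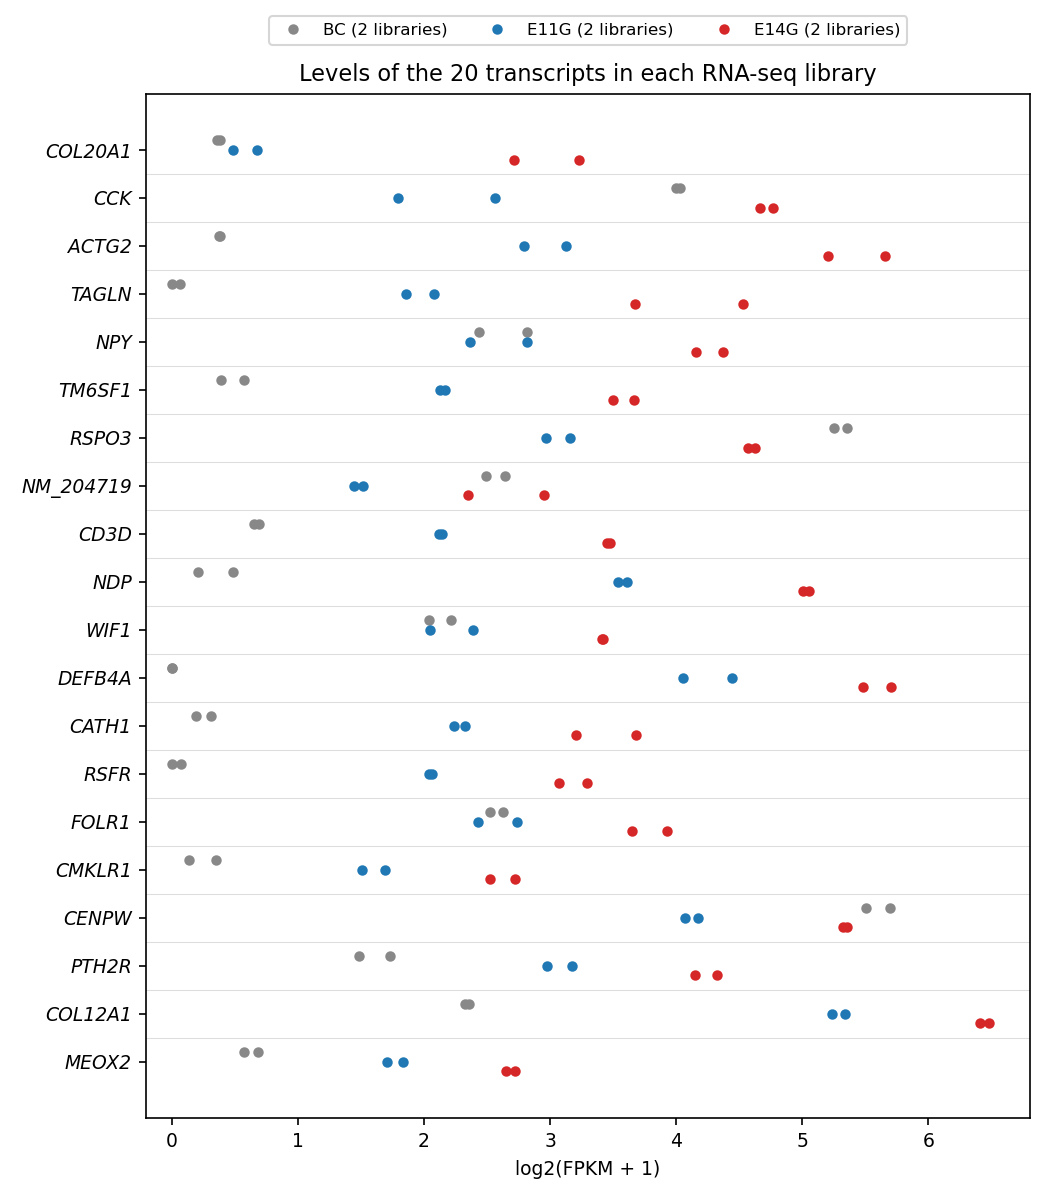
Level of each of the 20 transcripts on the log2(FPKM + 1) axis, with 1 point per RNA-seq library, ordered from the largest ratio of E14G to E11G means at the top. In every line both E14G points lie right of both E11G points, as the choice of members requires, while the BC points lie left of E11G for 13 transcripts and right of E14G for RSPO3 and CENPW.

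The members with the largest ratios included genes of contractile cells and of the matrix. ACTG2 (NM_205172, chr22:2844745-2847382 on galGal5), the γ actin of smooth muscle, was at 0.305 and 0.297 FPKM in BC, 7.74 and 5.92 FPKM in E11G, and 35.8 and 49.4 FPKM in E14G. TAGLN (NM_205494, chr24:5206490-5209284), which encodes the actin-binding protein transgelin of smooth muscle, was at 0.0462 and 0 FPKM in BC, 2.62 and 3.22 FPKM in E11G, and 11.8 and 22.1 FPKM in E14G. Both genes thus had BC levels under 1 FPKM and below those of E11G. Their E14G levels were higher still, which the choice of members required, at ratios of 6.23 for ACTG2 and 5.79 for TAGLN between the gonad stages. In both, E14G2 was the higher library.

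Other smooth muscle markers differed less between the gonads. ACTA2, the α actin of smooth muscle, was at 284 and 298 FPKM in E14G and at 265 and 249 FPKM in E11G. MYH11, the smooth muscle myosin heavy chain, was at 2.50 and 3.35 FPKM in E14G and at 1.03 and 0.985 FPKM in E11G. MYLK overlapped in its main transcript, at 52.7 and 55.1 FPKM in E14G and 46.1 and 56.9 FPKM in E11G. Its other transcript was lower in E14G, at 3.47 and 4.48 FPKM against 7.03 and 5.09 FPKM in E11G. Summed over the 4 transcripts of the smooth muscle and pericyte list outside the members, the level was 4.39 and 5.63 FPKM in BC, 319 and 312 FPKM in E11G and 342 and 361 FPKM in E14G. In the gonads, ACTA2 made up most of these sums. The part of such cells in the ACTG2 and TAGLN values was not tested.

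COL20A1 (NM_001004392, chr20:9022634-9065766) and COL12A1 (NM_205021, chr3:81088529-81188723) encode collagens that associate with fibrils rather than form them. COL20A1 had the largest ratio of all members, at 0.280 and 0.306 FPKM in BC, 0.601 and 0.401 FPKM in E11G, and 5.57 and 8.38 FPKM in E14G. COL12A1 had the highest E14G level of all members, and the lowest but 1 ratio, 2.26, with 4.13 and 4.01 FPKM in BC, 36.6 and 39.5 FPKM in E11G, and 84.2 and 88.2 FPKM in E14G. COL20A1 was therefore near its BC level in E11G, whereas COL12A1 was already far above it. MEOX2 (NM_001005427, chr2:28094370-28147050), a homeobox regulator of mesenchyme, was at 0.489 and 0.606 FPKM in BC, 2.56 and 2.27 FPKM in E11G, and 5.59 and 5.27 FPKM in E14G. Its ratio of 2.25 was the smallest of the 20.

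CCK and NPY, both neuropeptide genes, were members. CCK (NM_001001741, chr2:43988979-43993653), which encodes the gut and brain peptide cholecystokinin, was at 15.0 and 15.4 FPKM in BC, 2.46 and 4.92 FPKM in E11G, and 26.3 and 24.4 FPKM in E14G. CCK was the only member with both BC libraries between the gonad stages, so that E11G held its lowest levels. NPY (NM_205473, chr2:31521079-31528989), neuropeptide Y, was at 6.06 and 4.42 FPKM in BC, 6.07 and 4.16 FPKM in E11G, and 16.9 and 19.7 FPKM in E14G. The BC and E11G values of NPY overlapped. Of the receptors for these peptides, NPY4R was at 3.63 and 2.94 FPKM in E14G and at 0.530 and 0.938 FPKM in E11G, and NPY2R at 2.53 and 2.60 FPKM in E14G and at 3.68 and 4.39 FPKM in E11G. Both receptors of CCK, CCKAR and CCKBR, stayed under 1 FPKM in all 6 libraries. These receptors were picked after their values were seen.

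RSPO3, NDP and WIF1 act on WNT or Frizzled signalling. RSPO3 (NM_001319025, chr3:59438706-59496891), an R-spondin, was at 37.1 and 40.0 FPKM in BC, 6.81 and 7.91 FPKM in E11G, and 23.6 and 22.7 FPKM in E14G. NDP (NM_001278086, chr1:111184728-111204533), which encodes norrin, a ligand of the receptor FZD4 in mammals, was at 0.403 and 0.156 FPKM in BC, 10.6 and 11.2 FPKM in E11G, and 32.2 and 31.2 FPKM in E14G. WIF1 (NM_001199607, chr1:33881873-33923658), the WNT inhibitory factor, was at 3.12 and 3.65 FPKM in BC, 4.24 and 3.13 FPKM in E11G, and 9.72 and 9.67 FPKM in E14G. Ratios between the gonad stages ran from 2.63 to 3.14 in the 3 genes, where the fold limit had set a floor and the median of all members was 2.76. Their BC levels differed. RSPO3 was highest in BC, NDP was nearly unmeasured there, and the BC values of WIF1 overlapped those of E11G.

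A second transcript of NDP (NM_001278087) was at 4.16 and 3.51 FPKM in E14G and at 2.11 and 1.59 FPKM in E11G. Since an assembler divides the reads of a locus among its transcripts, the levels of the 2 NDP transcripts are not independent. FZD4 was lower in E14G, at 16.5 and 19.3 FPKM against 27.6 and 27.5 FPKM in E11G (limma, difference of -0.60 ± 0.10 (SE) on log2(FPKM + 1), adjusted p = 0.0425). This call was lost when any 1 of the 6 libraries was left out. With all 6 kept, it was also lost when 0.1 in place of 1 was added to FPKM. Keeping transcripts under 1 FPKM in the test lost it too. SFRP5, another secreted WNT inhibitor, fell just short of the level limit, at 4.02 and 5.97 FPKM in E14G and 1.74 and 1.90 FPKM in E11G. Among 34 other transcripts of WNT ligands, receptors, inhibitors and mediators that reached 1 FPKM, both E14G libraries lay above both E11G libraries for 12 and below them for 12. Over all 22368 transcripts the shares were 28.2% above and 25.0% below. Of the 4282 RefSeq transcripts of at least 5 FPKM in E14G, 1734 outside the members were above. Some of the 34 lay under that level in E14G, such as WNT11 at 0.713 and 0.978 FPKM. Neither background thus matches the set in level. The WNT set was drawn up after its values were seen.

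The receptor transcript NM_001177575 (chr2:3598939-3705034) is annotated as PTH2R, with the parathyroid hormone receptor PTH1R among its synonyms. Which receptor it encodes was not settled, and PTH2R is used here as its label only. The transcript was at 2.31 and 1.81 FPKM in BC, 8.02 and 6.88 FPKM in E11G, and 16.7 and 19.0 FPKM in E14G. Both BC values thus lay below both E11G values, while the step from E11G to E14G was required by the choice of members.

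The members DEFB4A, CATH1, CD3D and CMKLR1 belong to host defence or are known from leukocytes. DEFB4A (NM_204992, chr3:107910924-107913429), the symbol given to the avian β-defensin AvBD2, was listed at 0 in both BC libraries, and was at 15.6 and 20.7 FPKM in E11G and at 43.8 and 51.2 FPKM in E14G. CATH1 (NM_001001605, chr2:4024915-4026402), a cathelicidin, was at 0.244 and 0.143 FPKM in BC, 3.71 and 4.01 FPKM in E11G, and 8.24 and 11.8 FPKM in E14G. Both peptide genes were thus higher in each gonad library than in either BC library. CD3D (NM_205512, chr24:5457625-5460103), a chain of the T cell receptor complex, was at 0.620 and 0.576 FPKM in BC, 3.41 and 3.34 FPKM in E11G, and 10.1 and 9.92 FPKM in E14G. CMKLR1 (NM_001282407, chr15:6537156-6542732), the receptor of the chemoattractant chemerin, was at 0.0977 and 0.279 FPKM in BC, 2.22 and 1.85 FPKM in E11G, and 4.76 and 5.59 FPKM in E14G. All 4 were under 1 FPKM in both BC libraries. Their ratios in the gonads ran between 2.54 and 2.97, where the fold limit had set a floor and the median of all members was 2.76.

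Other genes set beside these members, some of them leukocyte genes, did not move as a block. CD3E, another chain of the same complex, was at 0.925 and 0.888 FPKM in E14G and at 0.896 and 1.47 FPKM in E11G, so that its stages did not separate. The stages of CD3D had to separate, by the choice of members. RARRES2, which encodes chemerin, was at 107 and 97.2 FPKM in E14G and at 100.2 and 105 FPKM in E11G in its main transcript, and the stages overlapped. The leukocyte antigen PTPRC was at 2.87 and 2.71 FPKM in E14G and at 2.88 and 3.05 FPKM in E11G. Summed over all 21 transcripts of the macrophage and leukocyte list, the level was 28.7 and 33.5 FPKM in BC, 67.8 and 65.4 FPKM in E11G and 83.1 and 91.3 FPKM in E14G, with no transcript at 0 in a whole stage. Both E14G libraries were above both E11G libraries for 9 of the 21 and below them for 4, where 28.2% of all transcripts were above and 25.0% below. Among the 9, LY86 was at 14.6 and 13.5 FPKM in E14G and at 6.81 and 7.62 FPKM in E11G. BLB2 was at 5.18 and 5.27 FPKM in E14G and at 2.36 and 2.98 FPKM in E11G, and LYZ at 2.97 and 3.61 against 1.88 and 1.84 FPKM. PTPRC was among the 4. Of the 4282 RefSeq transcripts of at least 5 FPKM in E14G, 1734 outside the members were above. That background does not match the list in level, since 7 of the 21 were under 1 FPKM in both E14G libraries. In limma, 3 of the 18 transcripts of this list tested rose in E14G (LYG2, LY86 and BLB1) and none fell, against 1.52% and 2.32% of all transcripts. In the list, 6 had an unadjusted p under 0.05, against 23.4% of all transcripts, RefSeq or not. Each of these 3 calls was lost when any 1 of the 6 libraries was left out. With all 6 kept, LYG2 and LY86 were also lost when 0.1 in place of 1 was added to FPKM. LYG2 and BLB1 were lost when transcripts under 1 FPKM were kept in the test, and LYG2 after centring on the medians. Of the 5452 RefSeq transcripts tested outside the members, 119 rose and 123 fell. The part of leukocytes in the values of the members was not tested.

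The defensin and cathelicidin genes lie in clusters, which allows the neighbours of the 2 members to be read in order. This set was drawn up after its values were seen and was not tested. On chromosome 3, AvBD10 (from position 107884712) was lower in E14G, at 80.1 and 141 FPKM against 230 and 171 FPKM in E11G, and AvBD9 was at 0.404 and 0.475 FPKM in E14G and at 5.44 and 1.502 FPKM in E11G. AvBD8 was listed at 0 in all 6 libraries. The next 4 genes in order all had higher E14G values. AvBD7 was at 35.9 and 35.4 FPKM in E14G and at 14.6 and 19.1 FPKM in E11G. AvBD6 was at 7.69 and 7.46 FPKM in E14G and at 2.10 and 3.77 FPKM in E11G. DEFB4A followed, and then AvBD1 (to position 107917298), at 29.1 and 35.0 FPKM in E14G and 16.6 and 13.1 FPKM in E11G. Past AvBD1, the transcripts of AvBD3, AvBD5, AvBD4 and AvBD14 stayed under 1 FPKM in every library. Within 1 cluster, therefore, neighbouring defensin genes were higher in E14G, lower in E14G, or nearly unmeasured.

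On chromosome 2, CATH2, which lies near CATH1, was listed at 0 in BC, and was at 8.03 and 5.54 FPKM in E11G and at 15.8 and 22.1 FPKM in E14G. It missed the fold limit narrowly, with the lower E14G library 1.96 times the higher E11G library. CATH3 was low, at 0.591 and 1.05 FPKM in E14G and at 0.175 and 0.590 FPKM in E11G. CATHB1, which lies between CATH2 and CATH1, was nearly unmeasured, at 0.0766 and 0.0802 FPKM in E14G and at 0 and 0.0579 FPKM in E11G. A second transcript of DEFB4A (NM_001201399) was listed at 0 in BC, and was at 1.64 and 0.451 FPKM in E11G and at 3.52 and 5.40 FPKM in E14G. It shares its locus with the member, so the reads behind the 2 levels were divided between them.

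**Figure D2:**
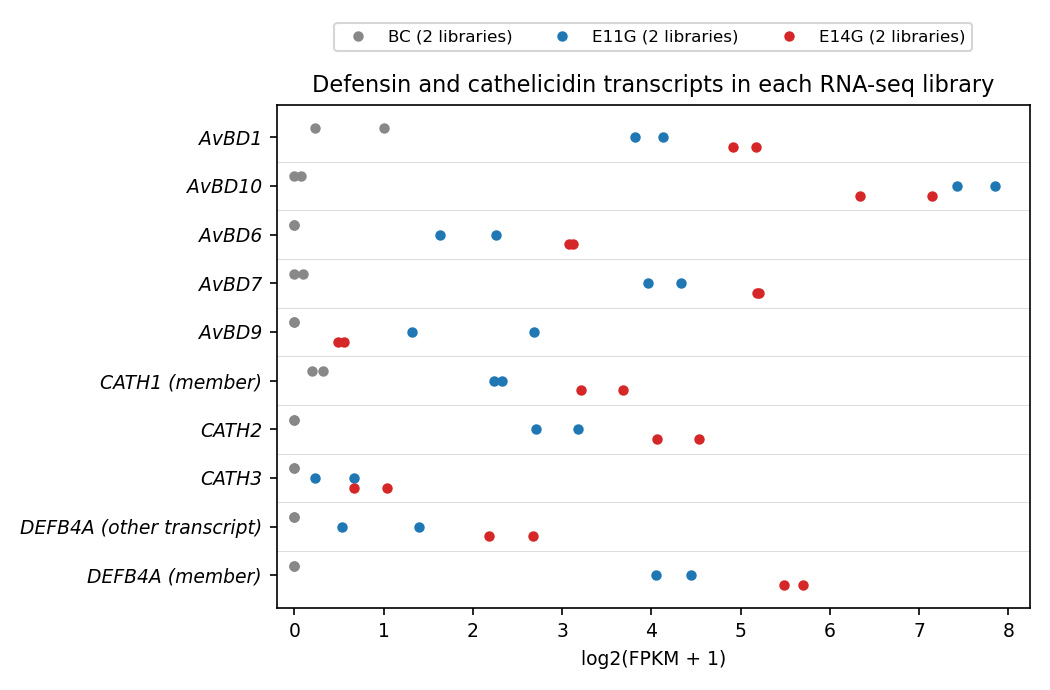
Level of each defensin and cathelicidin transcript that reached 1 FPKM, on the log2(FPKM + 1) axis with 1 point per RNA-seq library. AvBD10 and AvBD9 lie lower in E14G than in E11G, and the other 8 transcripts lie higher, among them DEFB4A and CATH1, chosen to be higher. Outside the members 6 of 8 lie higher and 2 lower, where 28.2% of all transcripts were above and 25.0% below. Of the 4282 RefSeq transcripts of at least 5 FPKM in E14G, 1734 outside the members were above, though some of the 8 lay under that level. The 6 include the second DEFB4A transcript, which shares its locus with a member. They also include CATH3, whose lower E14G value was 0.591 FPKM and higher E11G value 0.590 FPKM.

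The remaining members have various roles. RSFR (NM_001007942, chr6:9299490-9300666), a gene of the ribonuclease A superfamily, was at 0.0535 and 0 FPKM in BC, 3.17 and 3.11 FPKM in E11G, and 8.82 and 7.42 FPKM in E14G. TM6SF1 (NM_001277461, chr10:11214441-11233484), a protein with several membrane spans, was at 0.309 and 0.488 FPKM in BC, 3.49 and 3.37 FPKM in E11G, and 10.3 and 11.7 FPKM in E14G. FOLR1 (NM_204834, chr1:194532764-194535871), a folate receptor in mammals, was at 5.17 and 4.75 FPKM in BC, 4.37 and 5.66 FPKM in E11G, and 14.2 and 11.5 FPKM in E14G. RSFR and TM6SF1 were thus under 1 FPKM in both BC libraries, whereas the BC and E11G values of FOLR1 overlapped. NM_204719 (chr2:841144-844718), which had no matched symbol, was at 5.23 and 4.63 FPKM in BC, 1.86 and 1.72 FPKM in E11G, and 4.09 and 6.74 FPKM in E14G. Its BC values fell between its 2 E14G values, and without E14G2 it no longer met the limits, nor did CMKLR1.

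CENPW (NM_001277733, chr3:59770149-59777170), a protein of the centromere on which kinetochores are built, was at 44.4 and 50.7 FPKM in BC, 17.1 and 15.8 FPKM in E11G, and 40.0 and 39.1 FPKM in E14G. It was thus highest in BC and lowest in E11G. Of 13 transcripts of other centromere proteins, both E14G libraries were above both E11G libraries for 12 and overlapped for CENPO, with a median ratio of 1.30. This set was drawn up after its values were seen. Over all transcripts 28.2% were above. Of the 4282 RefSeq transcripts of at least 5 FPKM in E14G, 1734 outside the members were above. Summed over the 19 transcripts of the cell cycle list, the level was 3898 and 4282 FPKM in BC, 1027 and 870 FPKM in E11G and 1302 and 1274 FPKM in E14G, and 17 of the 19 were higher in both E14G libraries. CDC20 and KIF11 passed limma there and none fell, against 1.52% and 2.32% of all transcripts. Of the 19, 14 had an unadjusted p under 0.05, against 23.4% of all transcripts, RefSeq or not. The calls of CDC20 and KIF11 were lost when any 1 of the 6 libraries was left out. With all 6 kept, KIF11 was also lost when 0.1 in place of 1 was added to FPKM. It was lost too when transcripts under 1 FPKM were kept in the test, and without a mean-variance trend in limma. Of the 5452 RefSeq transcripts tested outside the members, 119 rose and 123 fell. The part of dividing cells in the CENPW values was not tested.

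**Figure D3:**
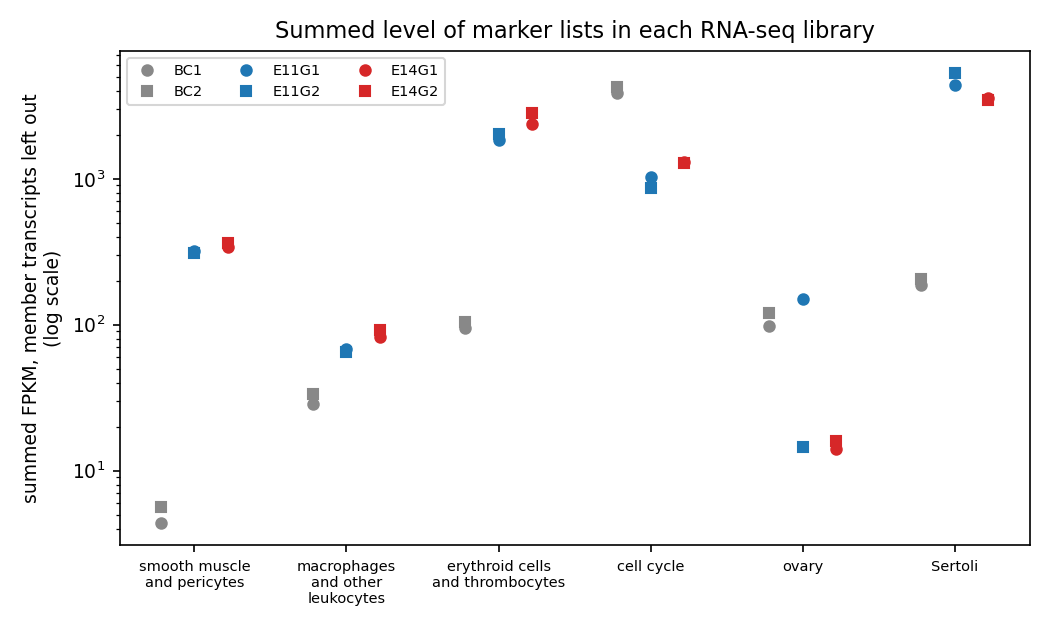
Summed FPKM of 6 marker lists without the member transcripts, on a log axis, with 1 point per RNA-seq library and the stages from BC to E14G within each list. The cell cycle and leukocyte sums are higher in E14G than in E11G, and E11G1 stands apart from E11G2 in the ovary list, at 150 against 14.4 FPKM. CYP19A1 alone made up 116 FPKM of the E11G1 ovary sum.

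The BC levels had no part in the choice of members. Both BC libraries were below both E11G libraries for 13 of the 20 members, above both E14G libraries for 2 (RSPO3 and CENPW), between the gonad stages for CCK, and overlapped a gonad stage for NPY, WIF1, FOLR1 and NM_204719. For comparison, 1734 RefSeq transcripts outside the members reached 5 FPKM in E14G and had both E14G libraries above both E11G libraries. Of these, BC was below both E11G libraries for 31.9%, above both E14G libraries for 56.5% and between the stages for 2.36%. The mean BC level of the members had a median of 0.573 FPKM and ran between 0 for DEFB4A and 47.6 FPKM for CENPW, and 11 of the 20 were under 1 FPKM in both BC libraries.

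To ask how the gonads differed from BC, the mean of E11G and E14G was set against BC with limma on log2(FPKM + 1) over all 22368 transcripts that reached 1 FPKM in any library. The p-values were Benjamini-Hochberg adjusted over this table, with a threshold of 0.05. Of the 20 members, 16 were higher in the gonads, 3 were lower, and CCK did not pass. Without E11G1 the counts were again 16 and 3, with CCK lower in the gonads in place of NM_204719. Over all transcripts 39.2% were higher and 41.1% were lower, and over the 4282 RefSeq transcripts of at least 5 FPKM in E14G 34.3% were higher and 51.9% lower. Both the E14G level and the fold over E11G required of a member enter the gonad mean. The count is thus not free of the choice of members. Of the 2 pairs of shares, the second is the closer background. The limits also favour members whose libraries of a stage lie close, and this spread enters the SE of each member. The differences, SEs and p-values of single members below are thus not free of that choice either. The median difference of the members was 1.96, against -0.30 for those 4282 transcripts and -0.02 for all.

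DEFB4A had the largest difference, 4.92 ± 0.13 (SE, limma adjusted p = 6.8e-06), and as it was listed at 0 in BC this value depends on the pseudocount. It was followed by NDP with 3.96 ± 0.10 (limma adjusted p = 6.0e-06), ACTG2 with 3.81 ± 0.16 (limma adjusted p = 2.0e-05) and COL12A1 with 3.52 ± 0.06 (limma adjusted p = 3.1e-06). TAGLN, CATH1, RSFR, TM6SF1, CD3D, PTH2R, CMKLR1, MEOX2 and COL20A1 followed in that order, from 3.002 ± 0.25 for TAGLN to 1.41 ± 0.17 for COL20A1. In all these 13 members, each of the 4 gonad libraries was above both BC libraries. For COL20A1, E11G was at 0.601 and 0.401 FPKM against 0.280 and 0.306 FPKM in BC. Its difference came mainly from the E14G values, on which it was chosen.

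The members with BC values near those of E11G had smaller differences. NPY was higher in the gonads by 0.80 ± 0.18 (limma adjusted p = 0.00862), WIF1 by 0.69 ± 0.12 (limma adjusted p = 0.00359) and FOLR1 by 0.61 ± 0.13 (limma adjusted p = 0.00755), each with 3 of 4 gonad libraries above both BC libraries. Without BC2 the calls of NPY and FOLR1 were lost, at adjusted p of 0.0767 and 0.0680 in limma, where the other alternatives of either gene gave lower values, down to 0.00302 for NPY and 0.00213 for FOLR1. The gonad mean of these genes averages over 2 stages of which only E14G lay clear of BC.

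RSPO3 was lower in the gonads, with a difference of -1.48 ± 0.08 (limma adjusted p = 3.8e-05), as was CENPW with -0.87 ± 0.08 (limma adjusted p = 0.000211), with all 4 gonad libraries below both BC libraries. NM_204719 was lower, with a difference of -0.50 ± 0.18 (limma adjusted p = 0.0478) and 3 of 4 gonad libraries below both BC libraries. This call was lost without BC1, BC2, E11G1 or E11G2, after centring on the medians and without the filter on low values, over an adjusted p range of 0.00408 to 0.312 in limma. For CCK the difference was -0.57 ± 0.22 (limma adjusted p = 0.0550), where 2 gonad libraries lay above both BC libraries and 2 below. Its adjusted p in limma ran between 0.00121 and 0.272 over the alternatives, and it passed the threshold without E11G1 and without E11G2.

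**Figure D4:**
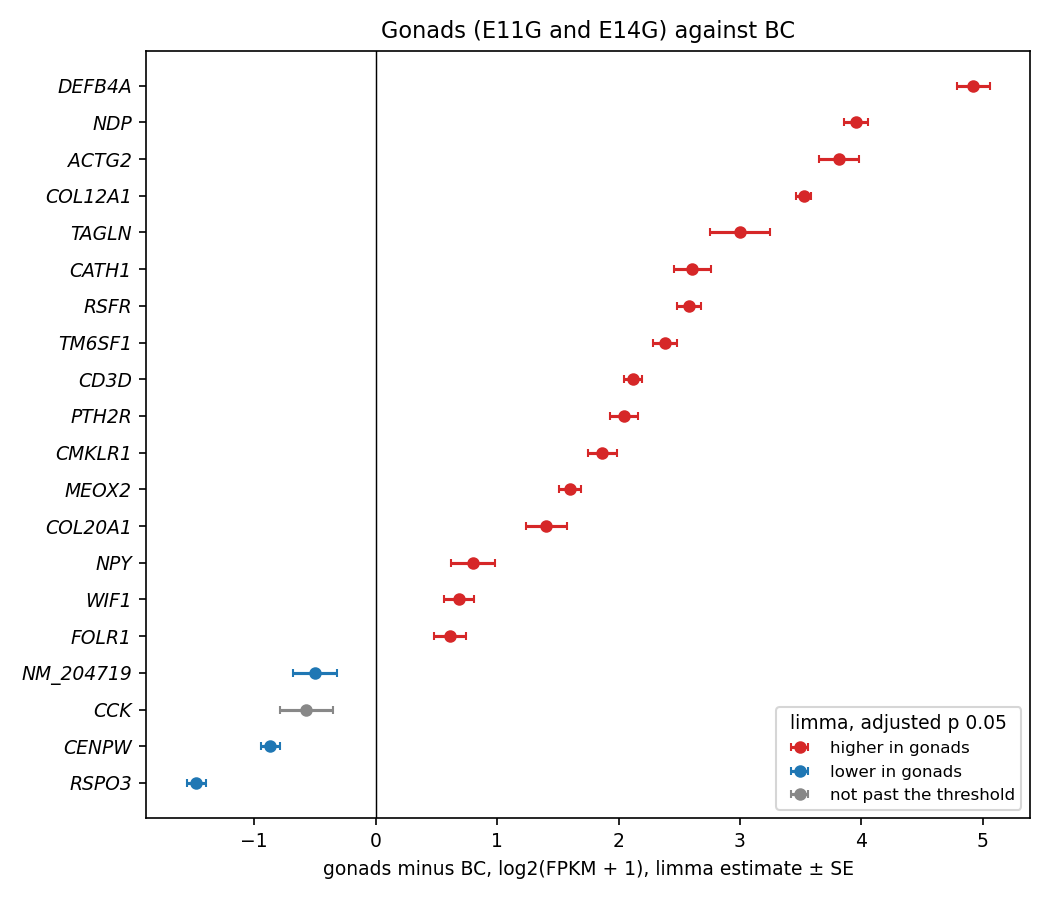
Difference of gonads (mean of E11G and E14G, 4 libraries) minus BC (2 libraries) on log2(FPKM + 1) for each member, as limma estimate with its SE. DEFB4A lies furthest to the right at 4.92 and RSPO3 furthest to the left at -1.48, and CCK is the member that did not pass the threshold. The E14G level and the fold over E11G required of a member enter these values.

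To ask what related genes did between the gonad stages, 10 gene lists were read outside the members, where the E14G against E11G difference could be tested. Of the members, 9 stood in a list and 11 in none. Of 547 list transcripts tested, 21 rose in E14G and 36 fell by limma, while over all 22368 transcripts 1.52% rose and 2.32% fell. The lists hold RefSeq transcripts only, and of the 5452 RefSeq transcripts tested outside the members 119 rose and 123 fell. The 21 include GRP, which had met both limits and was left out by name, and without it 20 of 546 rose. These counts depended on every library. With 1 library left out they ran between 0 and 9 for those that rose and between 0 and 16 for those that fell, and both were 0 without BC1 or without BC2. Without E11G1, 1 rose and 4 fell. At an unadjusted p under 0.05, 222 of the 547 passed in either direction, against 23.4% of all transcripts, RefSeq or not.

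In the muscle contraction list, which holds ACTG2 and TAGLN, 4 of 17 other transcripts rose and 1 fell. CSRP1, a LIM protein of smooth muscle, rose by 1.061 ± 0.12 (SE), with 30.9 and 39.5 FPKM in E14G against 16.3 and 16.2 FPKM in E11G (limma adjusted p = 0.0241). MYL3, MYH11 and MYOCD, the coactivator of smooth muscle genes, rose by 1.23, 0.96 and 0.81. MYH7, a myosin heavy chain of cardiac and slow muscle, fell by 1.46. The members ACTG2 and TAGLN had the 2 largest differences of the list, 2.47 and 2.13, which their choice had fixed to be high.

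In the extracellular matrix list, which holds COL12A1, 2 of 44 other transcripts rose and 2 fell. COL6A1 and COL6A2, 2 chains of collagen VI, rose by 0.76 ± 0.07 and 0.82 ± 0.08 (limma adjusted p = 0.0194 and 0.0198). COL6A1 was at 94.7 and 102 FPKM in E14G and at 57.6 and 57.7 FPKM in E11G. SPON1 fell by 0.86 and TGFBI fell by 0.47.

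In the list of secreted signals, which holds CCK, NPY, RSPO3 and WIF1, 6 of 71 other transcripts rose and 8 fell. GRP, another neuropeptide, was at 41.7 and 53.9 FPKM in E14G and at 5.18 and 1.78 FPKM in E11G. It is counted among those that rose, although it had met both limits and its values on this contrast had chosen it. Without GRP, 5 of 70 rose, namely IGFBP2, WNT5B, IGFBP4, IGF1 and NTF3. WNT5B was at 12.9 and 16.3 FPKM in E14G and at 7.21 and 6.60 FPKM in E11G. The chemokine CXCL14 fell by 2.47, the most of this list, and WNT11 fell by 1.47.

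The receptor list holds the member annotated as PTH2R through its synonym PTH1R. In it, NRP1 rose by 1.02, with 70.5 and 86.5 FPKM in E14G against 38.7 and 37.3 FPKM in E11G, and 8 of 78 fell. The vascular receptor KDR fell by 1.55, GFRA1 fell by 1.41 and the estrogen receptor ESR1 fell by 0.98. Among transcription regulators, which hold MEOX2, 3 of 80 rose (NFIX, NKX3-2 and TBX3) and 9 fell. SOX3 fell by 1.56 and MSX1 fell by 1.47. The members of these lists thus stood among genes that moved in either direction.

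Calls that rose were few in the lists without a member, as in the receptor list, where 1 of 78 rose. Over all transcripts 1.52% rose and 2.32% fell, and of the 5452 RefSeq transcripts tested outside the members 119 rose and 123 fell. In retinoid and steroid handling 1 of 26 rose (AKR1D1) and 4 fell (TTR, STRA6, CYP26A1 and ALDH1A2). In lipid and cholesterol metabolism 1 of 36 rose (CD36) and 1 fell (FABP3), and among transporters and channels 3 of 155 rose, led by SLCO4A1 with 1.14, and 3 fell. In the cytochrome P450 list 0 of 18 rose and CYP26A1 fell in limma, with 9 under an unadjusted p of 0.05. Among immediate-early and stress genes 0 of 28 passed limma in either direction, with 9 under an unadjusted p of 0.05.

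**Figure D5:**
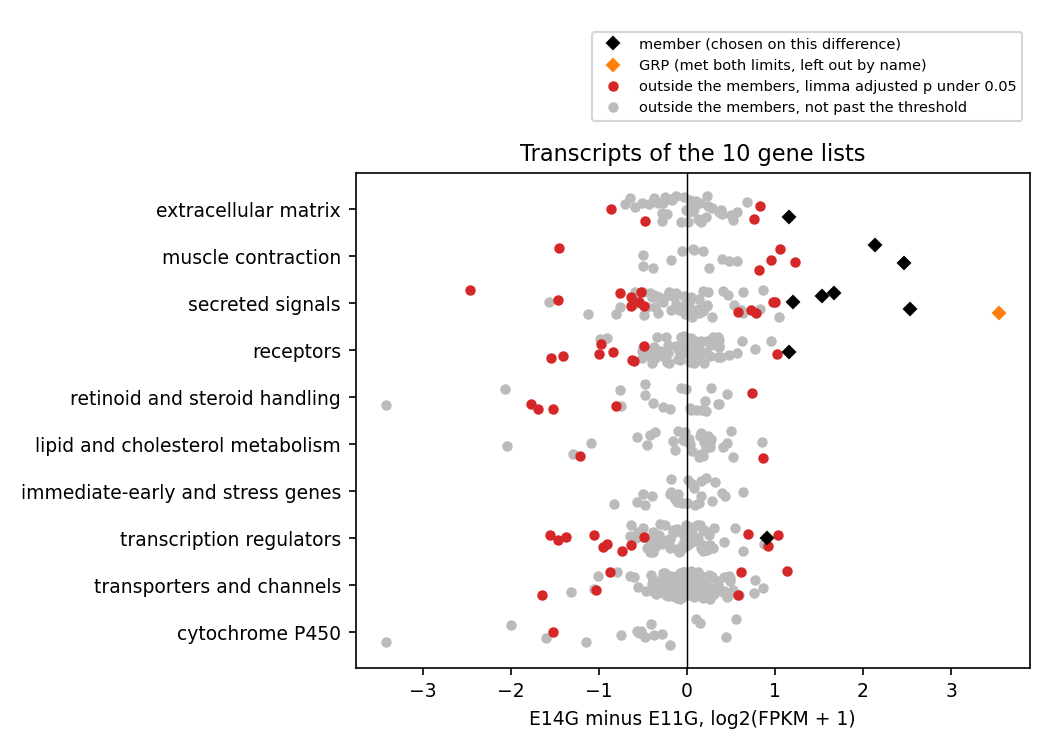
Difference of E14G minus E11G on log2(FPKM + 1) for each tested transcript of the 10 gene lists, with the members as black diamonds and the transcripts past the limma threshold in red. The orange diamond is GRP at 3.55, which met both limits and was left out by name, and red points lie on both sides of 0 in 8 lists.

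The limits of the rule cut through a continuous range. Just inside the fold limit lay FOLR1, CATH1 and MEOX2, with the lower E14G library 2.04, 2.05 and 2.06 times the higher E11G library. Just outside lay AvBD6 at 1.98, CATH2 at 1.96 and CNTN1, a neural adhesion protein, at 1.96. Just inside the level limit lay CMKLR1, MEOX2 and COL20A1, with E14G means of 5.18, 5.43 and 6.98 FPKM, and just outside lay SFRP5 at 4.99, MYL3 at 4.68 and GABRE at 4.62 FPKM.

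The transcripts most like the 2 leading members were sought by Euclidean distance of log2(FPKM + 1), centred per transcript, over the 6 libraries and 5114 RefSeq transcripts outside the members. Nearest to COL20A1 were the second DEFB4A transcript at a distance of 1.10, NPY4R at 1.26 and GABRE, a subunit of the GABA receptor, at 1.28. Nearest to CCK were CHTF8 at 1.49, MYL3 at 1.59 and RPS27A at 1.65. Of these, CHTF8 and RPS27A owed their low E11G level to E11G1 alone, where RPS27A was at 241 FPKM against 886 FPKM in E11G2.

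By position, 6 of the 20 members lay on chromosome 2 and 4 on chromosome 3, which hold 8.43% and 7.80% of the RefSeq transcripts. Members lay less than 1000 kb apart in 3 pairs. RSPO3 and CENPW, the 2 members highest in BC, were 273 kb apart with no other RefSeq transcript between them in the table. TAGLN and CD3D were 248 kb apart with 7 RefSeq transcripts between them, and PTH2R and CATH1 320 kb apart with 5 between them. None of these 12 met the fold limit. Between PTH2R and CATH1, both E14G libraries were above both E11G libraries for 4 of the 5 and below for 0. These 4 include CATH2, CATH3 and CATHB1, cathelicidin genes like CATH1. For CATH3 the lower E14G value was 0.591 FPKM and the higher E11G value 0.590 FPKM. CATHB1 was nearly unmeasured, at 0.0766 and 0.0802 FPKM in E14G and at 0 and 0.0579 FPKM in E11G. Between TAGLN and CD3D they were above for 1 of the 7 and below for 2. Over all transcripts that reached 1 FPKM in any library, which CATHB1 did not, 28.2% were above and 25.0% below.

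The study's small RNA libraries, 8 in all, came from other birds and breeds, and the piRNA clusters called in them were set against the members. In this paragraph E11G2 and E14G2 name small RNA libraries, not the RNA-seq libraries above. No cluster of any library overlapped a member, while clusters overlapped 3.88% of the 4282 RefSeq transcripts of at least 5 FPKM in E14G. The nearest cluster lay 572 bp from NPY and was called in E11G2 alone, at 66.0 RPM (reads scaled to the total of the cluster list). The next was 4186 bp from RSPO3, also in E11G2 alone, at 93.3 RPM. A larger cluster, 47 kb from FOLR1, was at 1180 RPM in E14G2 and was called within 50 kb in 4 libraries. Within 50 kb of their transcripts, 3 of the 20 members had a cluster, and 15.8% of the 4282 RefSeq transcripts did.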

How the data were processed

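The authors mapped the RNA-seq reads to galGal5 with Tophat2, assembled transcripts with Cufflinks 2.2.1, annotated them with RefSeq and Ensembl, and deposited a table of FPKM scaled across libraries by Cuffnorm. For the small RNA libraries, they deposited proTRAC cluster lists, whose normalized hits are RPM of the list's reads, a score used here as deposited. No read counts were used. Symbols came from RefSeq records of another assembly (GRCg7b), which matched 6005 of the 6528 RefSeq transcripts.

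Here FPKM was tested as log2(FPKM + 1) by limma 3.58.1 in R 4.3.3 with a mean-variance trend over all 6 libraries (3 residual degrees of freedom), for transcripts of at least 1 FPKM in at least 1 library, with Benjamini-Hochberg adjustment. The scripts were tested on simulated data. Fold changes on this scale understate the change of low transcripts. A TMM scaling was not run, since it needs counts, and centring on medians took its place.

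Named members were those with the 10 largest ratios, the 10 highest E14G or 6 highest BC levels, those next to the limits, and those in a list. The others were named after their values were seen, as were single genes set beside members. The members and lists were chosen with earlier results of these data known. Other pseudocounts, filters, limits and single libraries left out were tried as alternatives. Sequences were not used here.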

Additional observations from a re-analysis of the deposited data

How the results depend on the processing

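The number of members followed the limits, with 93 at 1.5-fold, 4 at 3-fold, 54 on stage means, 40 from 1 FPKM and 7 from 20 FPKM, and it ran between 32 and 44 with 1 gonad library left out. Leaving out an E11G library can only add members. The counts of members higher (16) and lower (3) in the gonads than in BC stayed within 1.5 times under every alternative run, at 14 to 16 and 2 to 3. Among the alternative fits of single members, 210 kept the direction and the side of the threshold, 8 lost the call, 2 gained it and none changed sign. With 1 library left out, list transcripts outside the members that rose in E14G ran between 0 and 9 (21 with all libraries) and those that fell between 0 and 16 (36 with all libraries). Without GRP, a choice made after the data were seen, 20 rose and 36 fell. Fits with 1 library left out had fewer residual degrees of freedom, 2 against 3 with all libraries. Within 10 kb of a piRNA cluster lay 2 of the 20 members and within 50 kb 3, distances added after the data were seen. Of the 4282 RefSeq transcripts of at least 5 FPKM in E14G, 8.08% lay within 10 kb and 15.8% within 50 kb. No paired analysis was possible because the RNA-seq labels carry no shared replicate numbers and no member was overlapped by a piRNA cluster. With 2 libraries per stage and unknown depth, low levels cannot be told from sampling noise.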
